A study of Mus musculus with 6 samples.

Results

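Proneural and related basic helix-loop-helix (bHLH) genes other than Atoh7 were followed across cell types and genotypes of the embryonic mouse retina. The 7 genes, Neurog2, Olig2, Neurod1, Neurod2, Neurod4, Neurod6 and Bhlhe22, were chosen by name from the 27998 genes of the count matrix, with earlier results of these data known. The 67050 retinal cells came from mouse embryos at embryonic day 14. Droplet-based sequencing of single cells was used, which counts the 3' ends of transcripts by unique molecular identifiers (UMIs). They formed 6 libraries in 3 genotype groups of 2: the mutant for Atoh7 that is heterozygous for Bax (Bax het Atoh7 null), the mutant for Bax alone, labelled WT for Atoh7 (Bax null), and the mutant for both (double null). Every group carried at least 1 mutant allele of Bax, which encodes an effector of programmed cell death, and no group had both genes intact. The labels did not say whether the alleles were germline or conditional, how many embryos went into a library, or whether the 2 libraries of a group came from separate animals, so the p-values measure only the spread between these libraries. The comparison of double null with Bax null differs in Atoh7, that of double null with Bax het Atoh7 null differs in the number of Bax copies, and that of Bax het Atoh7 null with Bax null differs in both.

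Proneural bHLH proteins bind E-box DNA (CANNTG) as heterodimers with the broadly expressed E proteins, and they turn on Notch ligands, cell cycle exit genes and further bHLH genes in a cascade. Id proteins take E proteins away from them, and Hes and Hey proteins, induced by Notch, repress their transcription. In the retina Atoh7 is the factor best known for ganglion cell competence, Neurog2 marks neurogenic progenitors, Olig2 marks progenitors near their last division, Neurod1 and Neurod4 are linked to photoreceptor, amacrine and bipolar fates, and Bhlhe22 to amacrine and bipolar subtypes. Neurod2 and Neurod6 are best known from differentiating neurons of the cortex and from amacrine subtypes.

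In GENCODE release M21 (GRCm38) each of the 7 genes had 1 transcript, with 2 exons except for the single exon of Bhlhe22. Neurog2 lies at chr3:127633135-127635631 and Bhlhe22 at chr3:18054174-18057517, both on the plus strand, as does Olig2 at chr16:91225457-91228677. Neurod1 at chr2:79452521-79456751, Neurod2 at chr11:98325415-98329648, Neurod4 at chr10:130268152-130280240 and Neurod6 at chr6:55677822-55681263 lie on the minus strand. RefSeq promoter sequences (GRCm38.p6) were matched for 6 of the 7 symbols. The 3 shown belong to Neurog2 and Neurod1, the genes called in ganglion cells also relative to progenitors, and to Neurod2, whose UMIs lay mainly in ganglion cells, and the capitals mark matches to the E-box letters CANNTG, the motif bound by this protein family. They are given 5′ to 3′ on the strand of the gene, from 250 bases before the RefSeq start up to the base before the GENCODE transcript, at chr3:127632886-127633134 (plus), chr2:79456752-79456886 (minus) and chr11:98329649-98329895 (minus).
Neurog2: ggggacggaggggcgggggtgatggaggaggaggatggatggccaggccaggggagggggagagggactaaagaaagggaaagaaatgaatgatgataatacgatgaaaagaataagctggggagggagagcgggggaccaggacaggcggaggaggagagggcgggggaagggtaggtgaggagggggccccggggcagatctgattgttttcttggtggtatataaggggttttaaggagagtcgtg
Neurod1: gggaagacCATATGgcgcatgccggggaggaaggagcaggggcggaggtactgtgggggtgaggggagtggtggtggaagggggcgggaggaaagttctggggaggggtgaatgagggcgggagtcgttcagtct
Neurod2: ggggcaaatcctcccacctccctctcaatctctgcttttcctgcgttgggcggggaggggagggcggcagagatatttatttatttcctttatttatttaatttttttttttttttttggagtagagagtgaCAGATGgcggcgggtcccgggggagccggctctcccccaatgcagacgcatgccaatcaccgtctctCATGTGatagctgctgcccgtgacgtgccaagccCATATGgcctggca

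Over the whole 250 bases Neurog2 had 0 matches to CANNTG, Neurod1 had 1 and Neurod2 had 3. Of the 3 matches upstream of Neurod2, 1 read CAGATG. The letters CANNTG, which read the same on both strands, occurred at least once in 66.2% of 32851 mouse promoter windows of that length, and CAGATG or its reverse complement CATCTG in 14.4%. A match describes the letters only.

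Libraries stood apart in ways that bear on the values given here. Both Bax null libraries held 63085055 and 66594431 UMIs against 22463515 to 33415227 in the other 4, mitochondrial genes took 3.80% and 3.90% of their UMIs against 1.06% to 1.15%, and their shallowest cell had 500 UMIs against 735 to 1163. The mitochondrial gene mt-Atp6 stood at 8740 and 9020 CPM (UMIs of a gene scaled to a common library total) in these 2 libraries and at 3.74 to 4.55 in the other 4. Without scaling the median gene differed by 0.57 to 0.64 (log2) between double null and Bax null, depending on the cell type. A technical difference between these libraries and the Atoh7 state cannot be told apart in the design, so most differences of the bHLH genes from Bax null are also given after subtracting the change in progenitors of the same libraries. The 2 double null libraries shared 2596 cell barcodes, 17.6% and 22% of their cells, against 126 to 223 in the other 14 pairs of libraries, and 89.4% of the shared barcodes had the same cell type label in both. In replicate 2 the shared barcodes held a median of 2.63 times the UMIs they held in replicate 1 (quartiles 2.56 to 2.69). Bax in replicate 1 stood at 16.9 CPM in cells with a shared barcode and 51.5 in its other cells. These 2 libraries may thus not be fully independent, and how the barcodes came to be shared was not tested. The main fits kept both copies. Calls within a cell type, shares of cells and co-detection were recomputed with each shared barcode kept once. Values relative to progenitors were not recomputed in that way. Atoh7 had 376 and 458 UMIs in the Bax null libraries and 0 in the other 4. Bax levels were 144 CPM and 108 for Bax het Atoh7 null, 17.1 and 15.0 for Bax null, and 47.7 (replicate 1) and 11.0 (replicate 2) for double null. The library labelled double null replicate 1 was thus higher than the other 3 labelled Bax null, and the sources used here do not say whether the counted 3' end lies in the deleted part of Bax.

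The authors' labels divided the cells into 40882 retinal progenitor cells (RPCs), 12857 neurogenic cells, 7357 ganglion cells, 3292 cones and 2662 horizontal cells. All 8 progenitor markers and all 13 ganglion markers were highest in the label of that name, as were 4 of 4 horizontal markers, 7 of 9 photoreceptor markers (in cones) and 6 of 9 neurogenic markers. The horizontal label also held the highest level of all 7 amacrine markers, so it is called the horizontal-labelled class here. Levels below are CPM after TMM scaling (trimmed mean of M values), with replicate 1 before replicate 2, and compare 1 gene between cells, not genes with each other.

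Neurogenic cells held most UMIs of 3 of the genes. They contributed 61.9% to 69.3% of all Neurog2 UMIs of a library, 88.6% to 96.4% of Olig2 and 64.5% to 70.6% of Bhlhe22. Neurod1 UMIs were spread more widely, with 49.4% to 57.2% in neurogenic cells, 22.1% to 26.3% in cones and 9.93% to 17.3% in ganglion cells. Cones held 42.9% to 59.8% of Neurod4 UMIs. Neurod2 differed from all of these, since 109 of its 129 UMIs lay in ganglion cells, 77.1% to 90.9% in each of the 4 Atoh7 null libraries. Neurod6 was seen as 1 UMI in a ganglion cell of each double null library and as 0 UMIs elsewhere, and it is not described further.

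The order of the cell types was read from CPM without TMM scaling, within each group. Neurog2 was highest in neurogenic cells in all 3 groups. Below them came ganglion cells in both Atoh7 null groups (181 to 218), whereas in Bax null the horizontal-labelled class (51.3 to 52.3) and RPCs (33.9 to 41.1) preceded ganglion cells (13.2 to 18.8), which overlapped cones. Neurod1 was highest in cones (1129 to 1877 over the 6 libraries), followed by neurogenic cells, with no overlap. Ganglion cells stood above the horizontal-labelled class in both Atoh7 null groups and below it in Bax null. Neurod4 followed the order cones, horizontal-labelled class, neurogenic cells, ganglion cells and RPCs in all 3 groups, and the second and the third overlapped in double null. Bhlhe22 followed the order neurogenic cells, ganglion cells, cones, horizontal-labelled class and RPCs in all 3 groups, with cones and the horizontal-labelled class overlapping in double null.

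**Figure D1:**
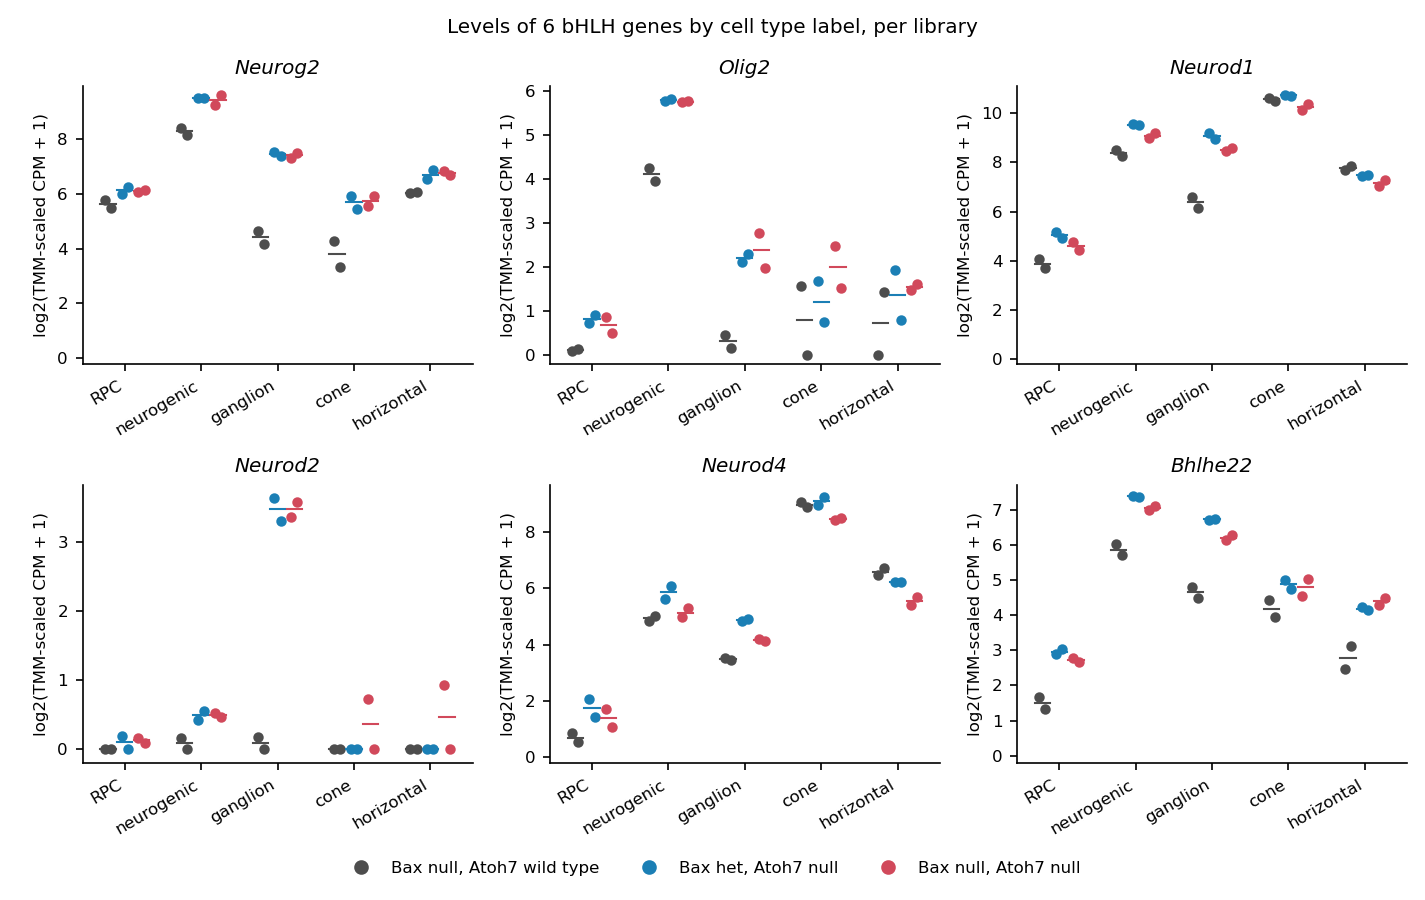
Levels of 6 of the genes in 5 cell type labels on a log2(TMM-scaled CPM + 1) axis, 1 point per library and a bar at the mean of the 2 libraries of a group. In ganglion cells Neurog2 and Neurod1 of the 4 Atoh7 null libraries lie above both Bax null libraries, and Neurod2 is near 0 in both Bax null libraries.

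In neurogenic cells 4 of the 5 genes that could be tested were higher in double null than in Bax null (edgeR quasi-likelihood F test, Benjamini-Hochberg adjusted p under 0.05, here "called"). Over all genes tested in these cells 47.3% were called and 23.5% were higher, so a call by itself was common. The median difference of the 5 genes was 1.15 (log2), against 0.00 for all genes tested. All 5 reached the count minimum of the filter in every group.

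Marker lists moved with the groups in these cells. The 8 progenitor markers summed to 4528 and 5165 in Bax null and 2975 to 3344 in the 4 Atoh7 null libraries, the 9 neurogenic markers (Atoh7, at 0 in the latter, among them) to 3708 and 4175 against 4605 to 5058, and the 13 ganglion markers to 445 and 454 against 648 to 760. Among the progenitor markers Hes1 alone stood at 892 and 1094 in Bax null and 61.8 to 97.2 in the Atoh7 null libraries. Between double null and Bax null 1 progenitor marker was higher and 4 were lower, 5 neurogenic markers were higher and 3 lower, and 5 ganglion markers were higher and 7 lower, where 23.8% of all genes were lower. Their part in the bHLH differences was not tested.

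Neurog2 in neurogenic cells stood at 345 and 287 in Bax null, 734 and 727 in Bax het Atoh7 null, and 605 and 797 in double null. Both Atoh7 null groups lay above Bax null and overlapped each other. The difference of double null from Bax null was 1.15 ± 0.14 (log2, SE) with an adjusted p of 5.82e-05, and 0.67 ± 0.07 after subtracting the change in RPCs (edgeR with library as a block, adjusted p = 2.31e-08). In that second comparison 7.46% of all genes were called, 4.21% higher and 3.25% lower, and so were 2 of the 5 described here, Neurog2 (higher) and Neurod4 (lower). For Bax het Atoh7 null against Bax null 1 of the 5 was called relative to RPCs, Neurog2 (0.71 ± 0.07, higher), where 8.35% of all genes were called and 4.22% were higher.

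Olig2 stood at 18.1 and 14.6 in Bax null, 53.9 and 55.9 in Bax het Atoh7 null, and 53.4 and 53.5 in double null. The 4 Atoh7 null libraries lay close together and well above Bax null, a difference of 1.71 ± 0.12 for double null (adjusted p = 7.08e-07). RPCs held few Olig2 UMIs, 2 to 21 in a library, and after subtracting their change the value was -1.11 ± 0.59 (adjusted p = 0.299), a value that rests on those few UMIs.

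Neurod1, which acts downstream of Neurog2 in several neural lineages, stood at 361 and 307 in Bax null, 763 and 728 in Bax het Atoh7 null, and 508 and 587 in double null. The 3 groups did not overlap, with double null in between. Double null exceeded Bax null by 0.71 ± 0.12 (adjusted p = 0.000528), and the same difference minus that in RPCs was -0.06 ± 0.10 (adjusted p = 0.807, interval -0.27 to 0.14). Bhlhe22 stood at 64.5 and 51.9 in Bax null, 170 and 166 in Bax het Atoh7 null, and 127 and 138 in double null. Its difference of 1.19 ± 0.11 (adjusted p = 7.69e-06) became -0.43 ± 0.18 (adjusted p = 0.166) relative to RPCs.

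Neurod4 was the gene that was not called between double null and Bax null in neurogenic cells. It stood at 27.7 and 31.4 in Bax null, 48.3 and 67.2 in Bax het Atoh7 null, and 30.6 and 38.5 in double null. Bax null and double null overlapped, a difference of 0.21 ± 0.17 (adjusted p = 0.32, interval -0.12 to 0.54). Relative to RPCs, where Neurod4 UMIs were few, it was lower by -1.29 ± 0.40 (adjusted p = 0.0373). Bax het Atoh7 null lay above both, and all 5 genes were called higher there than in Bax null, where 47.1% of all genes tested were called and 23.4% were higher. The values for the comparison of Bax het Atoh7 null with Bax null were 1.21 ± 0.14 for Neurog2, 1.75 ± 0.12 for Olig2, 1.16 ± 0.12 for Neurod1, 0.97 ± 0.16 for Neurod4 and 1.53 ± 0.11 for Bhlhe22. Both comparisons use the same Bax null libraries.

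**Figure D2:**
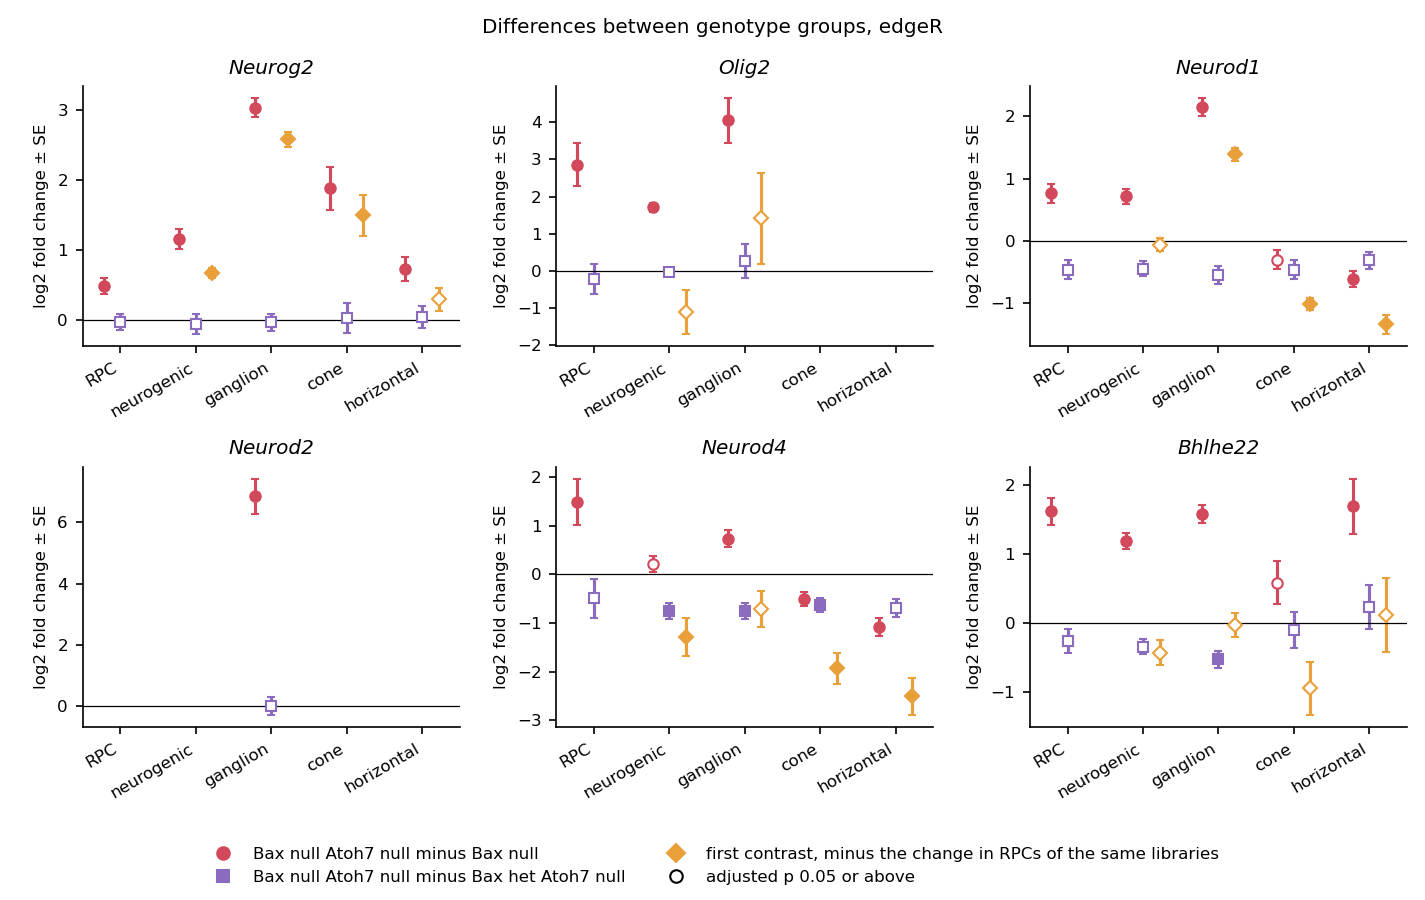
Log2 fold changes with standard errors by cell type label for 6 genes: double null minus Bax null (circles), double null minus Bax het Atoh7 null (squares), and the first contrast after subtracting the change in RPCs of the same libraries (diamonds, for labels in which the gene passed the count filter and not for Neurod2). Filled symbols have an adjusted p under 0.05, and Neurog2 and Neurod1 in ganglion cells stay filled and above 0 after the subtraction, while the Neurod2 and Olig2 circles in ganglion cells are of genes that passed the count filter through the Atoh7 null libraries.

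In ganglion cells Neurog2, Neurod1, Neurod4 and Bhlhe22, the 4 genes that reached the count minimum in every group, were higher in double null than in Bax null. Here 52.7% of all genes tested were called and 26.2% were higher, and the median difference was 1.87 for the 4 genes against 0.02 for all genes. Neurod2 and Olig2 reached the minimum in Atoh7 null libraries alone, so they could be tested only because they were higher there, and they are left out of this count.

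Neurog2 in ganglion cells stood at 24.1 and 17.3 in Bax null, 183 and 168 in Bax het Atoh7 null, and 159 and 182 in double null. The groups with and without Atoh7 were far apart and the 2 Atoh7 null groups overlapped. Double null exceeded Bax null by 3.04 ± 0.14 (adjusted p = 4.49e-09), and by 2.58 ± 0.11 relative to the change in RPCs (adjusted p = 9.8e-22). Of all genes tested, 15.7% were called in this second comparison and 8.15% were higher. Of the 6 genes described here 2 were among them, Neurog2 and Neurod1, both higher.

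Neurod1 in ganglion cells stood at 96.3 and 69.4 in Bax null, 583 and 496 in Bax het Atoh7 null, and 349 and 387 in double null. The groups did not overlap, and double null lay between the others. The excess over Bax null was 2.15 ± 0.15 (adjusted p = 1.61e-07), and 1.39 ± 0.10 relative to RPCs (adjusted p = 3.43e-14).

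Neurod2, a gene of differentiating neurons, had 1 and 0 UMIs in the ganglion cells of the Bax null libraries, 24 and 27 in Bax het Atoh7 null, and 27 and 30 in double null, although the Bax null libraries held the most ganglion UMIs. Summed over libraries and scaled to the totals, the ratio of double null to Bax null was 167, with a counting interval of 28.8 to 6717. That interval covers counting error only. A technical difference of the Bax null libraries, such as that of mt-Atp6 given above, cannot be told apart from the Atoh7 state for Neurod2 either. The ratio of double null to Bax het Atoh7 null was 1.02 (0.685 to 1.51). No test is given, since Neurod2 passed the filter through the groups in which it was high, and the value relative to RPCs, which held 0 to 3 Neurod2 UMIs in a library, was 3.63 ± 16.3.

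Olig2 was scarce in ganglion cells, with 0.367 and 0.12 in Bax null, 3.36 and 3.95 in Bax het Atoh7 null and 5.87 and 2.93 in double null, from 1 to 17 UMIs in a library. The fitted difference of double null from Bax null was 4.05 ± 0.61, and 1.42 ± 1.23 relative to RPCs (adjusted p = 0.513). Bhlhe22 stood at 27.3 and 21.7 in Bax null, 105 and 107 in Bax het Atoh7 null and 70.1 and 77.2 in double null. Its difference of 1.59 ± 0.13 (adjusted p = 7.11e-07) became -0.02 ± 0.17 relative to RPCs (adjusted p = 0.959, interval -0.36 to 0.32). Neurod4 stood at 10.4 and 9.94 in Bax null, 27.8 and 28.9 in Bax het Atoh7 null and 17.3 and 16.5 in double null, a difference of 0.73 ± 0.17 (adjusted p = 0.0034) and of -0.72 ± 0.38 relative to RPCs (adjusted p = 0.221). Against Bax null, Bax het Atoh7 null was higher for the same 4 genes too, where 50% of all genes tested were called and 25% were higher. Relative to RPCs, Neurog2 (2.56 ± 0.11) and Neurod1 (1.48 ± 0.10) were called higher in that comparison too, where 15.2% of all genes were called and 7.4% were higher.

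Marker lists also moved with the groups in ganglion cells. There 10 of 13 ganglion markers were lower in double null than in Bax null and none was higher, where 26.5% of all genes were lower, and their summed level was 16977 and 18026 in Bax null, 8213 to 9546 in Bax het Atoh7 null and 8512 to 9756 in double null. Of the 8 progenitor markers 7 were higher and 1 was lower, and their sum was 492 to 710 in Bax null and 1057 to 1349 in the Atoh7 null libraries. The sum of 9 neurogenic markers was 1476 and 1522 in Bax null and 1583 to 1924 elsewhere. Globin genes, the blood list, summed to 557 and 627 in Bax null and 3.66 to 170 elsewhere. Photoreceptor markers summed to 57.6 to 59.1 in Bax null and 69.0 to 87.3 elsewhere, horizontal markers to 668 to 672 and 1072 to 1167, and amacrine markers to 70.8 to 72.4 and 113 to 141. The part of these lists in the bHLH differences was not tested.

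In cones Neurod4 was lower in double null. It stood at 537 and 473 in Bax null, 497 and 606 in Bax het Atoh7 null and 350 and 361 in double null. Double null lay below both other groups, by -0.51 ± 0.14 against Bax null (adjusted p = 0.00961), a call that ended without replicate 1 of Bax null and turned to 0.05 when libraries were scaled to their totals alone. Scaled in that way, the median gene of cones itself differed by 0.59 between these groups. Neurod1 in cones stood at 1602 and 1444 in Bax null, 1739 and 1663 in Bax het Atoh7 null and 1127 and 1342 in double null, and was not called against Bax null (-0.30 ± 0.15, adjusted p = 0.14; 0.26 when scaled to totals alone). Neurog2 was low in cones, 18.6 and 8.96 in Bax null, 59.7 and 43.3 in Bax het Atoh7 null and 46.6 and 59.5 in double null, and was higher in double null by 1.88 ± 0.31 (adjusted p = 0.000106). Only 1 Bax null library reached the count minimum for Neurog2 in cones. Of the 3 genes that reached the count minimum in every group, 0 were higher in double null and 1 was lower, where 28.1% of all genes were called, 12.5% higher and 15.6% lower. Against Bax null, Bax het Atoh7 null had 0 of these 3 genes called, where 27.5% of all genes were called and 12.7% were higher. Neurog2, left out of both counts, was called higher there too (1.86 ± 0.31). The 9 photoreceptor markers summed to 4661 and 4761 in cones of Bax null, 3692 and 3885 in Bax het Atoh7 null and 3043 and 3427 in double null, and the 8 progenitor markers to 1146 and 1217 in Bax null and 1417 to 1705 elsewhere. Between double null and Bax null 2 of 7 tested photoreceptor markers were lower and none was higher, and 6 progenitor markers were higher and 1 was lower. Their part in the Neurod4 and Neurod1 values was not tested.

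Relative to RPCs, the sign in cones was the same under both comparisons with Bax null. Neurog2 was higher by 1.5 ± 0.29 and 1.43 ± 0.29 for double null and Bax het Atoh7 null, Neurod1 was lower by -1.02 ± 0.10 and -1.0 ± 0.10, and Neurod4 by -1.93 ± 0.31 and -1.80 ± 0.29. These 3 genes were called in both, where 4.91% and 5.3% of all genes were called, 3.05% and 3.11% higher and 1.85% and 2.19% lower. Without the subtraction, Neurod1 and Neurod4 in cones of Bax het Atoh7 null differed from Bax null by 0.16 ± 0.15 and 0.13 ± 0.14, neither called. In RPCs they were higher in Bax het Atoh7 null by 1.23 ± 0.15 and 1.98 ± 0.45, so the lower values there come from the RPC term. Neurod4 in RPCs rested on 13 to 70 UMIs in a library.

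In the horizontal-labelled class, 3 of the genes reached the count minimum in every group. Of these, 1 was higher in double null than in Bax null and 2 were lower, where 29.2% of all genes were called, 13.5% higher and 15.7% lower. Neurog2 (0.73 ± 0.17) was higher, and Neurod1 (-0.61 ± 0.14) and Neurod4 (-1.08 ± 0.18) were lower. Bhlhe22 (1.69 ± 0.40, called higher) reached the count minimum in the Atoh7 null libraries alone, with 5 and 9 UMIs in Bax null. Its calls here could only be to the higher side, so it is left out of the counts. Neurod4 stood at 87.5 and 106 in Bax null, 74.7 and 73.3 in Bax het Atoh7 null and 41.1 and 50.7 in double null, so the groups did not overlap. The Neurod1 call ended when libraries were scaled to their totals alone, and that of Neurog2 with DESeq2. For Bax het Atoh7 null, 1 of the 3 genes was called, Neurog2 (0.69 ± 0.17, higher), where 30.2% of all genes were called and 14.4% were higher. Bhlhe22 (1.46 ± 0.40) was called higher too, under the same limit. Neither Neurog2 nor Bhlhe22 was called with DESeq2 or without replicate 2 of Bax het Atoh7 null. Bhlhe22 was not called without replicate 1 of Bax null or without doublets. Relative to RPCs, Neurod1 (-1.34 ± 0.15 and -1.49 ± 0.14) and Neurod4 (-2.51 ± 0.38 and -2.29 ± 0.35) were called lower under both comparisons, where 3.09% and 2.65% of all genes were called and 1.39% and 1.47% were lower. Neurog2 and Bhlhe22 were not called there (0.29 ± 0.17 and 0.12 ± 0.54 for double null). Without the subtraction, Neurod1 and Neurod4 of Bax het Atoh7 null differed from Bax null by -0.30 ± 0.13 and -0.39 ± 0.16, neither called. Photoreceptor markers summed to 254 and 304 in this class of Bax null and 65.4 to 105 elsewhere, and neurogenic markers to 2208 and 2213 against 1339 to 1534. Between double null and Bax null 5 of 5 tested photoreceptor markers and 4 of 7 neurogenic markers were lower and none was higher. Their part in the Neurod1 and Neurod4 values was not tested.

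In RPCs Neurog2, Neurod1 and Bhlhe22, the 3 genes that reached the count minimum in every group, were higher in double null than in Bax null, where 53.9% of all genes were called and 26.8% were higher. Neurog2 showed the smallest difference of the 3, from 53.6 and 44.6 in Bax null to 66.9 and 69.7 in double null (0.48 ± 0.11, adjusted p = 0.00659), and its call ended without replicate 2 of Bax null. Neurod1 went from 15.6 and 12.0 to 25.9 and 20.6 (0.76 ± 0.16), and Bhlhe22 from 2.17 and 1.52 to 5.92 and 5.42 (1.62 ± 0.20). Olig2 (2.86 ± 0.58) and Neurod4 (1.48 ± 0.47) rested on few UMIs, 2 to 21 and 13 to 70 in a library, and passed the filter through the Atoh7 null libraries. The Neurod4 call ended without replicate 2 of Bax null or without replicate 1 of double null. The same 3 genes were also higher in Bax het Atoh7 null, where 53.1% of all genes were called and 26.6% were higher. There the Neurog2 call ended without replicate 2 of Bax null.

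Between the 2 Atoh7 null groups, which differ in Bax by their labels, few differences were called. Of these, Neurod4 was lower for double null in neurogenic cells (-0.76 ± 0.16, adjusted p = 0.0385), ganglion cells (-0.75 ± 0.17, adjusted p = 0.0387) and cones (-0.64 ± 0.14, adjusted p = 0.0167). Bhlhe22 was lower in ganglion cells (-0.53 ± 0.12, adjusted p = 0.0428). These were 1 of 5, 2 of 6 and 1 of 4 genes tested in neurogenic cells, ganglion cells and cones, where 1.77%, 2.34% and 1.46% of all genes were called and 1.76%, 2.1% and 1.43% were lower. In every one of these label and gene pairs both double null libraries lay below both Bax het Atoh7 null libraries.

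In the sum over all cells of a library, where fewer cells of a type and less RNA per cell cannot be told apart, 4 of the 5 genes that reached the count minimum in every group were higher in double null than in Bax null and Neurod4 was not called (0.32 ± 0.12, adjusted p = 0.0553). Of all genes 56.4% were called in that sum and 28.1% were higher. For Bax het Atoh7 null against Bax null all 5 were higher (55.8% of all genes called, 28.4% higher). Neurod2, with 2 and 0 UMIs in Bax null, is left out of both counts. Between the Atoh7 null groups Neurod4 alone was lower (-0.79 ± 0.12, adjusted p = 0.0259), where 1.64% of all genes were called and 1.6% were lower, and DESeq2 called 2 genes there.

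The 4 calls within cell types depended on single libraries. The Neurod4 call in neurogenic cells ended without replicate 2 of Bax het Atoh7 null, replicate 1 of double null or either Bax null library, and the one in ganglion cells without any 1 of the 6 libraries. In cones it ended without replicate 2 of Bax het Atoh7 null or either Bax null library, and the Bhlhe22 call ended without replicate 1 of double null or without 1 of the 2 Bax het Atoh7 null libraries, whichever it was. With shared barcodes kept once, the call remained for Neurod4 in cones and for none of the other 3. Neurod1 was lower in double null in all 5 labels, by -0.31 to -0.55, without being called in any by edgeR with group as the only term (adjusted p = 0.0658 in ganglion cells and 0.113 in neurogenic cells). In RPCs (2.01% of all genes called) and in the horizontal-labelled class (1.61%) edgeR called 0 of the genes, with 1 and 2 at an unadjusted p under 0.05. Relative to RPCs, edgeR called 0 of the genes in each of the other 4 labels, with 0 at an unadjusted p under 0.05, where 0%, 0.102%, 0.0152% and 0.0536% of all genes were called in neurogenic cells, ganglion cells, cones and the horizontal-labelled class. For Neurog2 the difference was -0.06 ± 0.14 in neurogenic cells (interval -0.34 to 0.22) and -0.04 ± 0.13 in ganglion cells (-0.28 to 0.21), and for Olig2 in neurogenic cells it was -0.04 ± 0.11 (-0.26 to 0.18).

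The same genes were then counted cell by cell. Each cell was thinned to 1000 UMIs, which left 12371 neurogenic cells, so that all cells counted had the same number of UMIs. Intervals are Wilson 95% intervals and cover counting error only. A Neurog2 UMI was found in 22.8% and 19.0% of neurogenic cells in Bax null, 46.8% and 44.9% in Bax het Atoh7 null and 40.6% and 48.8% in double null. Neurod1 was found in 23.1% and 19.96%, 50.1% and 48.4%, and 40.5% and 44.7% in the same order. Olig2 was found in 1.35% and 1.14%, 5.21% and 5.01%, and 5.09% and 5.29%.

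For these 3 genes both Bax null libraries lay below the other 4. The same order held for Bhlhe22, at 4.45% to 6.56% in Bax null and 12.7% to 16.9% elsewhere, and for Neurod4, at 2.65% and 2.70% against 3.36% to 6.60%. The TMM factors of the libraries correspond to depths of 1287 and 1296 UMIs in Bax null and 814 to 912 elsewhere. At these depths the gap narrowed, with Neurog2 at 26.4% and 22.3% in Bax null and 38.6% to 43.9% elsewhere. Without thinning, where Bax null cells are the deepest, the shares were 48.9% and 46.2% against 56.4% to 65.9%.

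Cells with 2 of the factors were more common than independent detection gives for most pairs. Of the 10 pairs of genes with at least 20 expected cells over the 6 libraries, 6 had an observed number above the expected number in every library. Neurog2 and Neurod1 were found together in 2667 cells against 2019 expected, a ratio of 1.32. By library the ratio was 1.79 and 2.06 in Bax null, 1.28 and 1.31 in Bax het Atoh7 null and 1.25 and 1.25 in double null. The ratio is bounded by the shares themselves, which were lower in Bax null, so its higher value there is given without a comparison.

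Olig2 was found with Neurog2 in 344 cells against 219 expected (ratio 1.57) and with Neurod1 in 322 against 222 (1.45). Neurod1 and Neurod4, which both peak in cones, shared 337 cells against 227 (1.48). Neurod1 and Bhlhe22 reached 1.31 and Neurog2 and Bhlhe22 reached 1.27. All of these were above 1 in 6 of 6 libraries. Neurog2 and Neurod4 (1.04, above 1 in 3 libraries) and Olig2 and Bhlhe22 (1.01, above 1 in 4) were near the expected number, and Olig2 and Neurod4 reached 1.28 with 3 libraries above 1. Neurod4 and Bhlhe22 were at 0.805, above 1 in 2 libraries.

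**Figure D3:**
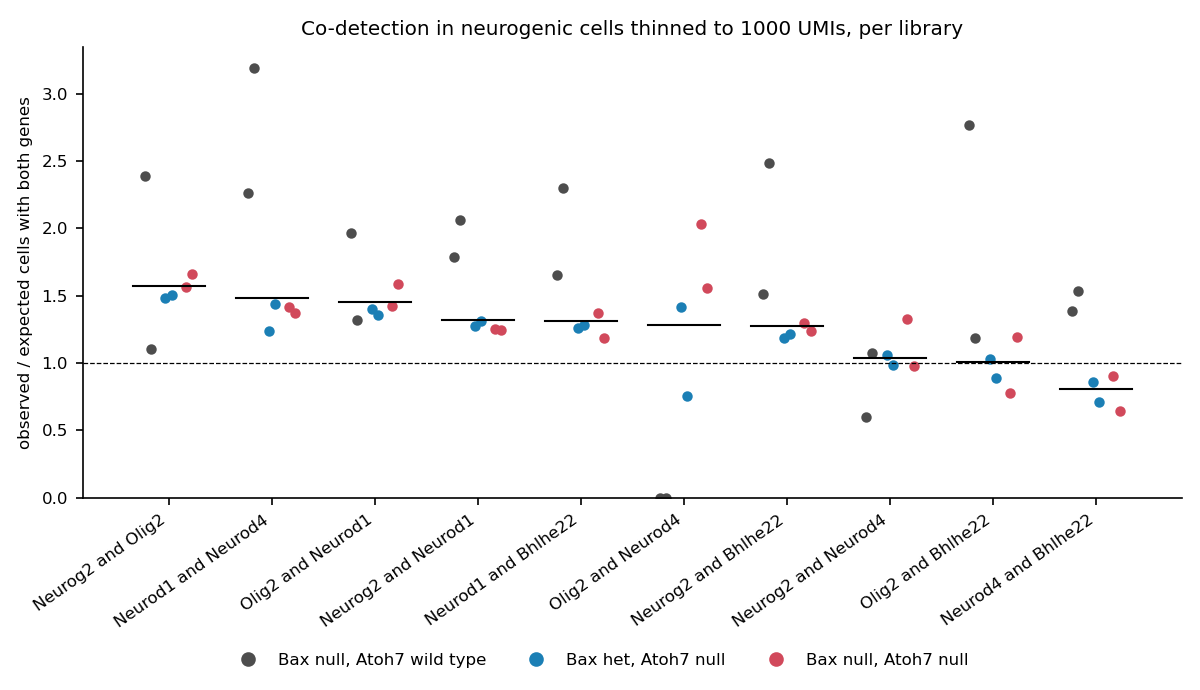
Observed over expected number of neurogenic cells with UMIs of both genes, for the 10 gene pairs with at least 20 expected cells, 1 point per library and a black bar for the 6 libraries pooled; the dashed line marks a ratio of 1. The 6 pairs with all libraries above 1 are those of Neurog2, Neurod1 and Olig2 with each other, of Neurod1 with Neurod4, and of Bhlhe22 with Neurog2 and Neurod1.

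Co-detection with partner genes differed between the factors. Otx2, which is required for photoreceptor fate, was found with Olig2 in 244 neurogenic cells against 108 expected (2.26) and with Neurod4 in 243 against 111 (2.20). The ratio was 1.44 for Neurog2, 1.43 for Neurod1 and 0.992 for Bhlhe22. These ratios have unlike upper bounds, since Olig2 and Neurod4 were found in 508 and 537 of the 12371 cells and Neurog2 and Neurod1 in 4775 and 4847. Of the cells with each factor, the library median with Otx2 was 46.2% for Olig2 and 44.6% for Neurod4. It was 28.8% for Neurog2, 29.8% for Neurod1 and 21.8% for Bhlhe22. Top2a, a gene of dividing cells in the G2 and M phases, was found with Olig2 at 1.68 and with Neurog2 at 1.16 times the expected number, both above 1 in 6 of 6 libraries, and with Neurod4 at 0.614, above 1 in none. Neurod1 was at 1.04, above 1 in 6 of 6, and Bhlhe22 at 0.978, above 1 in 2.

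Ptf1a, which directs amacrine and horizontal fates, was found less often than expected with 4 of the factors: 12 cells held Neurog2 and Ptf1a against 40.9 expected (0.293), 16 held Neurod1 and Ptf1a against 41.9 (0.382), 0 held Bhlhe22 and Ptf1a against 13.1, and 2 held Olig2 and Ptf1a against 4.18 (above 1 in 1 library). Neurod4 differed from them, with 14 cells against 4.80 (2.92, above 1 in 5 libraries), and it was also found with Crx, a photoreceptor gene, in 22 cells against 3.07. Onecut1 was found more often than expected with Neurog2 (1.37) and Neurod1 (1.32), in 6 of 6 libraries, and Olig2 (1.75) and Neurod4 (1.71), in 5 of 6. Atoh7 could be scored in Bax null only, where 26 cells held Neurog2 and Atoh7 against 18.5 expected and 23 held Neurod1 and Atoh7 against 19.1, each above 1 in 1 of the 2 libraries. These counts carry no test.

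Neurod1 UMIs were present in a large share of cells labelled ganglion. After thinning, 7.78% (6.61 to 9.12) and 4.17% (3.29 to 5.29) of ganglion cells had a Neurod1 UMI in Bax null, 45.4% (41.7 to 49.2) and 37.8% (34.9 to 40.7) in Bax het Atoh7 null, and 31.7% (29.0 to 34.5) and 32.4% (29.7 to 35.3) in double null. All 4 Atoh7 null libraries were far above both Bax null libraries. With the depth scaled by the TMM factor the values were 9.04% and 6.32%, 40.8% and 35.1%, and 29.5% and 30.9%.

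The share differed between cell types in every library. RPCs, which had median depths of 1713 to 6977 UMIs against 1834 to 6683 in ganglion cells, had a Neurod1 UMI in 0.899% to 3.42% of cells, the horizontal-labelled class in 10.9% to 15.8%, neurogenic cells in 19.96% to 50.1% and cones in 62.9% to 80.3%. Thinning left out 30.3% of the cones and 11.4% of the horizontal-labelled cells of double null replicate 2, and up to 7.38% of cones elsewhere. Ganglion cells of Bax null were thus above RPCs and below the horizontal-labelled class, and those of the Atoh7 null libraries lay above the horizontal-labelled class. Neurog2 followed in ganglion cells, with 2.10% and 1.35% in Bax null and 15.0% to 19.0% elsewhere.

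**Figure D4:**
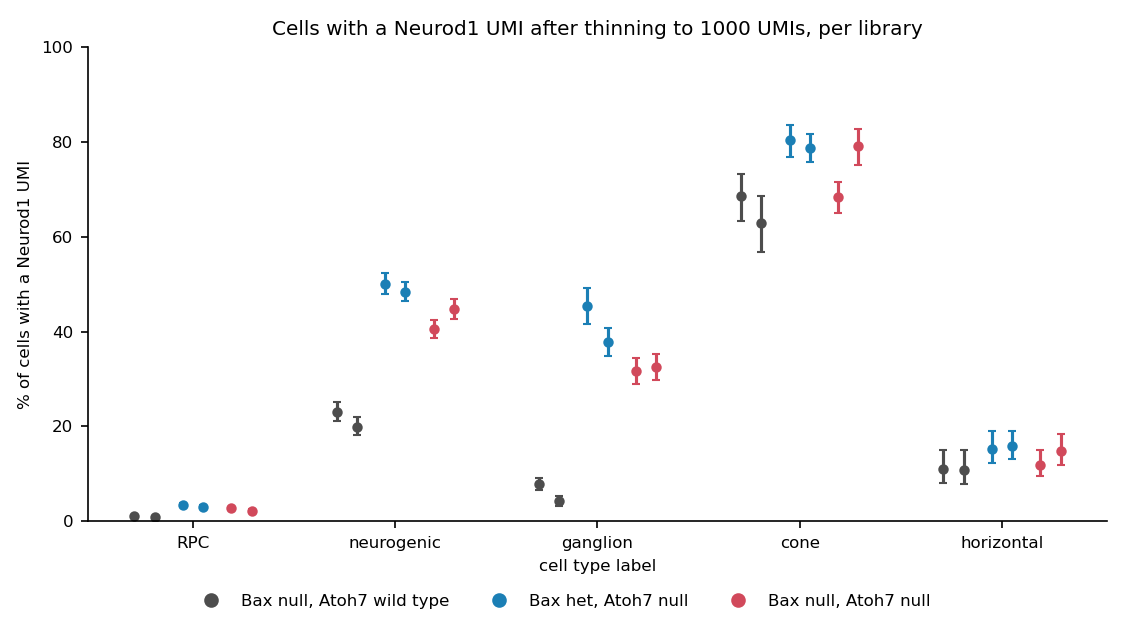
Percentage of cells with a Neurod1 UMI after thinning to 1000 UMIs, by cell type label and library, with Wilson 95% intervals. In ganglion cells the 4 Atoh7 null libraries lie between 31.7% and 45.4% and the 2 Bax null libraries at 7.78% and 4.17%.

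Ganglion cells with a Neurod1 UMI had fewer ganglion marker transcripts. The 13 markers summed to 7.17 to 8.73 UMIs per 1000 in cells with Neurod1 and 9.89 to 12.8 in cells without, a ratio of 0.646 to 0.743 in the 6 libraries. Neurogenic markers went up, from 1.30 to 1.77 UMIs per 1000 without to 2.23 to 3.05 with Neurod1, a ratio of 1.60 to 1.79. Photoreceptor markers were rare in both but 1.27 to 3.89 times higher with Neurod1, at 0.0852 to 0.160 per 1000. The ratio for progenitor markers lay on both sides of 1, from 0.612 to 1.15, as did that for amacrine markers, from 0.554 to 1.15.

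Gene by gene, the ganglion cell regulators Pou4f2 (52 cells with both against 84.2 expected, ratio 0.617) and Isl1 (399 against 520, 0.768) and the axon and filament genes Sncg (0.547), Nefl (0.645) and Nefm (0.645) were found with Neurod1 less often than expected, below 1 in 6 of 6 libraries. Stmn2, a general neuronal gene, was near 1 (0.983). Neurod4 (2.17), Otx2 (1.97), Neurog2 (1.30), Dll3 (1.31) and Hes6 (1.24) were found with it more often, above 1 in 6 of 6. Top2a (0.897) was above 1 in 2 of the 6.

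Clusters of the authors differed widely in the share of cells with Neurod1. With the ganglion label, 20 clusters held at least 50 cells. Neurod1 was found in 58.1% of cells of cluster 53, 54.2% of cluster 90, 41.2% of cluster 129 and 34.6% of cluster 46, and in 1.2% to 8.96% of 12 others. Clusters 53 and 46 held 16.3% and 20.8% of the ganglion cells of Bax het Atoh7 null and 17.2% and 15.1% of those of double null, against 21 and 34 cells of Bax null. Cluster 53 and cluster 90 had low ganglion marker sums, 4.22 and 3.53 UMIs per 1000, and Neurog2 in 32.5% and 25.6% of cells. Clusters 19, 44 and 92, with 384, 306 and 283 of their 411, 370 and 310 cells from Bax null, also had low sums (5.25, 1.40 and 2.54) but few cells with Neurod1 (2.94%, 7.92% and 6.29%).

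Clusters 9, 62, 63, 90 and 100 held at least 50 cells of each group. In all 5 of them the share with Neurod1 was lowest in Bax null. In cluster 9, with a high ganglion marker sum, it was 5.58% (3.78 to 8.17) in Bax null, 27.7% (19.9 to 37.1) in Bax het Atoh7 null and 21.7% (14.5 to 31.2) in double null. In cluster 63 it was 7.34%, 26.5% and 27.6%, and in cluster 90 it was 45.5% (34.0 to 57.4), 60.4% and 50.4%. For clusters 90 and 62 the intervals of Bax null and double null overlapped, and in cluster 90 so did those of Bax null and Bax het Atoh7 null. Cells of both libraries of a group were pooled for these shares. Their intervals cover counting error only and not the spread between libraries, so they do not compare the groups. The clusters with the most ganglion cells differed between groups, 9, 19 and 44 in Bax null, 46, 53 and 63 in Bax het Atoh7 null and 62, 53 and 46 in double null.

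**Figure D5:**
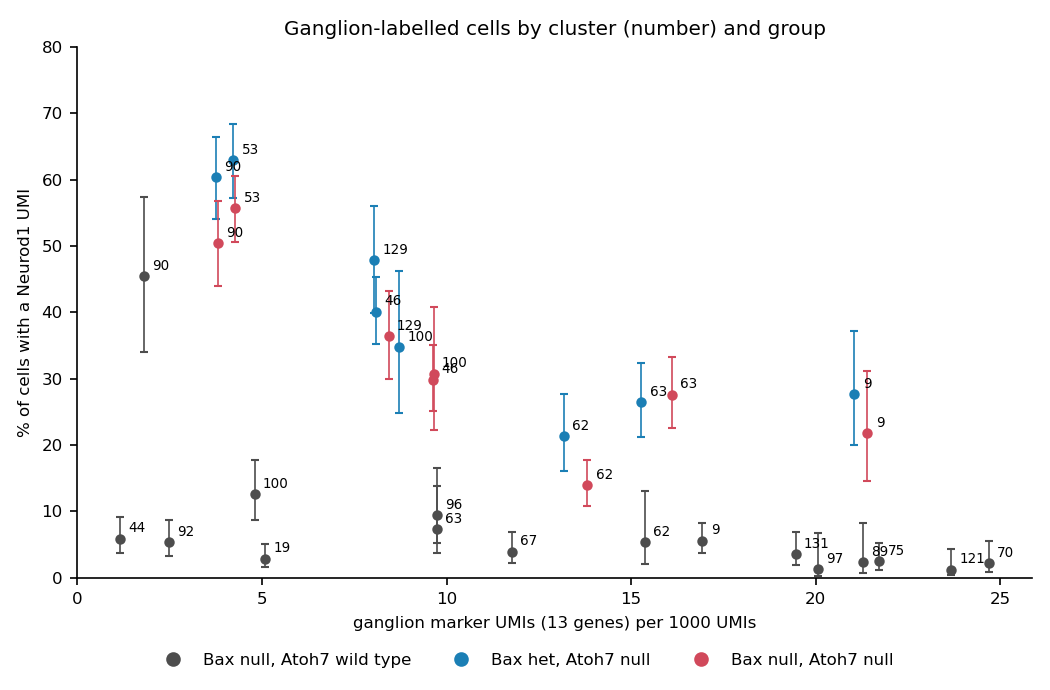
Percentage of ganglion-labelled cells with a Neurod1 UMI (thinned to 1000 UMIs, Wilson 95% intervals) against the sum of 13 ganglion marker genes per 1000 UMIs, 1 point for each cluster and group with at least 50 cells, with the cluster number beside it. Cells of both libraries of a group were pooled. Clusters 9, 62 and 63 appear in all 3 groups at marker sums above 9, and their Bax null points lie below the others.

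Partners and repressors of the bHLH genes were described from lists taken whole. All 3 E proteins were higher in ganglion cells of double null than of Bax null (Tcf3 0.99, Tcf4 0.93, Tcf12 0.55), and 2 of 3 in neurogenic cells, where 26.2% and 23.5% of all genes were higher. Relative to RPCs 2 of 3 were higher in ganglion cells and 1 in neurogenic cells (8.15% and 4.21% of all genes). Of 7 Id, Hes and Hey repressors, 5 were lower and none was higher in neurogenic cells, among them Hes1 (-3.88) and Id3 (-1.55), and 3 were lower and none was higher in ganglion cells, where 23.8% and 26.5% of all genes were lower. Relative to RPCs, 4 of the 7 were higher and 2 were lower in ganglion cells, a turn of direction, while 5 were lower and none was higher in neurogenic cells. Of all genes 8.15% were higher and 7.53% lower in ganglion cells relative to RPCs, and 3.25% were lower in neurogenic cells. In RPCs 4 repressors were lower and 1 was higher, where 27.1% of all genes were lower. The low level of Hes1 was not confined to neurogenic cells, since it stood at 2057 and 2204 in RPCs of Bax null and at 219 to 355 in those of the other libraries. The median of the 7 was -0.84 in neurogenic cells against 0.00 for all genes tested there.

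Of the 12 other tissue-specific bHLH genes 7 could be tested in neurogenic cells, and 4 were lower in double null than in Bax null. These were Atoh7 itself, Ptf1a (-1.07), Nhlh1 (-0.96) and Atoh8 (-0.82). Atoh7 had 0 UMIs in the Atoh7 null libraries, so its call could only be to the lower side. Over all genes tested in neurogenic cells 2775 were lower, the share given above with the repressors, so a lower call by itself was common. Among 11 genes that respond to proneural factors, 9 were higher in neurogenic cells and none was lower (23.5% of all genes were higher), including the Notch ligands Dll3 (1.39), Dll1 (0.71) and Dll4 (0.58), the zinc finger gene Insm1 (1.09) and Btg2 (0.97), a gene of cell cycle exit. In ganglion cells 7 of the 11 were higher (26.2% of all genes), led by Insm1 (2.31) and Gadd45g (2.22). Relative to RPCs, 3 of the 11 were higher and 1 was lower in neurogenic cells, and 3 were higher and 2 were lower in ganglion cells, where 4.21% and 8.15% of all genes were higher. In double null against Bax het Atoh7 null, edgeR called 0 genes of these 4 lists in neurogenic and ganglion cells and 1, a repressor that was lower, in RPCs.

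The genes most alike in pattern were named over 30 profiles, 5 cell types in each of 6 libraries, among 8133 genes, by Pearson correlation of log2(CPM + 5) centred within each library. The profiles share libraries and depth, and the correlations are descriptions. Dll3 was most like Neurod1 (r = 0.98), followed by Btbd17 and Phip. Penk was most like Olig2 (0.96), Ankrd33b most like Neurod4 (0.98), Sstr2 most like Bhlhe22 (0.97) and Eny2 most like Neurog2 (0.93). Among the members, Neurog2 and Olig2 were alike (0.88), as were Neurod1 and Neurod4 (0.88), while Neurog2 and Neurod4 were not (-0.20).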

How the data were processed

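The authors' deposited matrix held raw UMI counts per gene and cell, made with Cell Ranger 1.2.1 on mm10, per the submitters' processing notes; their filters on cells are not given in the sources used here. The deposited cell table gave total counts, cluster numbers and cell type labels. It also held 26078 cells of 2 libraries that belong to no sample of the series, which were not used.

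UMIs were summed per library and label. Library totals ranged from 22463515 to 66594431 UMIs, and ganglion cells held 1913889 to 10906998. The sums were filtered (filterByExpr), TMM-scaled and tested with edgeR 4.0.16 (R 4.3.3), quasi-likelihood F test, all 6 libraries in 1 fit, group as the only term. Benjamini-Hochberg adjustment ran over all genes tested in a label and contrast, and an adjusted p under 0.05 is a call. SE was the log2 fold change divided by the square root of F, and intervals are 1.96 SE. The difference from RPCs came from edgeR with library as a block and a label by group term, and was fitted under the main settings only. An exact permutation of 2 against 2 libraries cannot pass 0.05. All tests were two-sided.

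Tested on simulated data for double null minus Bax null, the edgeR step recovered 67 of 100 genes changed 2-fold and 99 of 100 changed 4-fold in neurogenic cells (11409 genes, 9 false calls), and 56 and 93 of 100 in ganglion cells (10110 genes, 12 false calls). A first requirement of 80% recovery at every fold was not met at 2-fold and was then kept for 4-fold only, so differences near 2-fold can be missed.

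Cells were thinned to 1000 UMIs by a seeded draw, which left out up to 10.9% of neurogenic cells and 30.3% of cones of a library. Doublets were an alternative only: the 8% of cells per library (5364 in all) with the highest score from an own implementation of the Scrublet procedure. Other alternatives were RLE size factors, DESeq2 1.42.0, no count filter, a replicate block, cells under 1000 UMIs left out, other depths and each library left out. Library totals without scaling, shared barcodes kept once and the scaled depth were chosen after seeing the data.

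Likeness used log2(CPM + 5) among genes with a mean of 10 CPM or more. The named genes are the 7 members, Atoh7 and Bax, the E protein, repressor, other bHLH, response and partner lists, the marker lists, and the 3 most alike genes of each member with at least 200 UMIs. The members and lists were chosen with earlier results of these data known, and the minimum of 20 expected cells for a gene pair after its values were seen. Results for 2 of the listed genes are not reported here. Promoter sequences are RefSeq's (GRCm38.p6).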

Additional observations from a re-analysis of the deposited data

Results flagged for a closer look

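The change between genotype groups differed between a cell type and the RPCs of the same libraries for 3 of the genes (Neurog2, Neurod1 and Neurod4), by edgeR with library as a block and Benjamini-Hochberg adjustment over all genes. Values are the log2 change in the cell type minus that in RPCs, for double null and then for Bax het Atoh7 null, each against the same Bax null libraries. For Neurog2 they were 2.58 (adjusted p = 9.8e-22) and 2.56 (1.38e-21) in ganglion cells, 0.67 (2.31e-08) and 0.71 (2.83e-09) in neurogenic cells, and 1.5 (0.000133) and 1.43 (0.000236) in cones. For Neurod1 they were 1.39 (adjusted p = 3.43e-14) and 1.48 (1.36e-15) in ganglion cells, -1.02 (6.46e-15) and -1.0 (1.93e-15) in cones, and -1.34 (1.75e-14) and -1.49 (1.41e-19) in the horizontal-labelled class. For Neurod4 they were -1.93 (adjusted p = 1.98e-06) and -1.80 (2.04e-06) in cones and -2.51 (3.16e-08) and -2.29 (5.37e-08) in the horizontal-labelled class, and -1.29 (0.0373) for double null alone in neurogenic cells. The Neurod4 values lean on 13 to 70 UMIs of that gene in the RPCs of a library. The Neurog2 values in cones lean on 8 to 82 UMIs in the cones of a library, and only 1 Bax null library reached the count minimum. None of these values was recomputed with shared barcodes kept once or with a library left out. Neurod1 had opposite signs in ganglion cells and in cones relative to RPCs, and ganglion cells were not tested against cones. Without the subtraction, Neurod1 and Neurod4 in cones of Bax het Atoh7 null were not lower than in Bax null (0.16 and 0.13, neither called).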

How the results depend on the processing

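Counts of calls given here include genes that passed the filter through the Atoh7 null libraries alone. Within cell types, of the 21 calls of double null against Bax null 16 remained under every setting beside the subtraction of RPCs, as did 15 of 19 for Bax het Atoh7 null against Bax null and 0 of 4 for double null against Bax het Atoh7 null. The 16 include Olig2 in RPCs and ganglion cells, Neurod2 in ganglion cells and Bhlhe22 in the horizontal-labelled class. These reached the count minimum in no Bax null library and could only be called higher. The 15 include the same Olig2 and Neurod2 calls. After subtracting the change in RPCs, the number of genes called against Bax null became 2 in neurogenic cells, 2 in ganglion cells and 2 in the horizontal-labelled class for double null, and 1 in neurogenic cells, 2 in ganglion cells and 3 in cones for Bax het Atoh7 null; between the Atoh7 null groups it became 0 in neurogenic cells, ganglion cells and cones. The sign turned for Olig2 (-1.11 and -1.29), Neurod1 (-0.06 and -0.06), Neurod4 (-1.29 and -1.02) and Bhlhe22 (-0.43 and -0.35) in neurogenic cells, for Neurod4 (-0.72 and -0.46) in ganglion cells and for Bhlhe22 (-0.95 and -1.11) in cones, each for double null and Bax het Atoh7 null against Bax null. It also turned for Bhlhe22 in ganglion cells of double null (-0.02), and in Bax het Atoh7 null for Neurod1 (-1.0) and Neurod4 (-1.80) in cones and Bhlhe22 (-0.39) in the horizontal-labelled class. Between the Atoh7 null groups it turned for Olig2 in neurogenic cells (0.18), Neurog2 (0.03) and Neurod2 (-0.35) in ganglion cells and Neurod1 in the horizontal-labelled class (0.14). The cause was not tested.

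With library totals alone the calls between the Atoh7 null groups were 0 in neurogenic cells, ganglion cells, cones and all cells, and 4 genes were called in cones of Bax het Atoh7 null against Bax null. In those cones 3418 of all genes were called higher and 417 lower, and the median gene differed by 0.48. The median gene also differed by 0.59 in cones of double null against Bax null and by 0.47 in the horizontal-labelled class of Bax het Atoh7 null. Signs turned for Neurog2 (0.03 in neurogenic, 0.08 in ganglion cells) and Olig2 (0.04 in neurogenic cells) between the Atoh7 null groups, for Neurod1 (0.26) and Neurod4 (0.05) in cones of double null, and for Neurod1 (0.14) and Neurod4 (0.05) in the horizontal-labelled class of Bax het Atoh7 null. Between the Atoh7 null groups the calls numbered 3, 0, 1 and 2 in neurogenic cells, ganglion cells, the horizontal-labelled class and all cells without the count filter, 2, 0 and 2 in neurogenic, ganglion and all cells with DESeq2, 0 and 0 in neurogenic and ganglion cells with shared barcodes kept once, and 2 in all cells without cells under 1000 UMIs. DESeq2 called 0 in the horizontal-labelled class of Bax het Atoh7 null against Bax null. Without doublets Neurod2 in ganglion cells turned to -0.02.

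With 1 library left out, a lone library is taken to vary like the others. The calls ranged from 3 to 5 in RPCs and 1 to 3 in cones for double null against Bax null, and from 0 to 3 in the horizontal-labelled class for Bax het Atoh7 null. Between the Atoh7 null groups they ranged from 0 to 2 in neurogenic cells, ganglion cells, cones and all cells and from 0 to 1 in the horizontal-labelled class. The differences there ranged from -1.18 to 0.05 for Neurod4 in RPCs, -0.27 to 0.10 for Neurog2 in neurogenic cells, -0.14 to 0.06 for Neurog2 and -0.17 to 0.19 for Neurod2 in ganglion cells. Neurod4 in cones of Bax het Atoh7 null against Bax null ranged from -0.04 to 0.26.

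The replicate block moved the calls between the Atoh7 null groups in RPCs from 0 to 1 and in ganglion cells from 2 to 3, in both by Neurod1 (-0.47, adjusted p = 0.0172, and -0.54, adjusted p = 0.0214, edgeR). The other counts stayed within 1.5 times. Replicate numbers paired the samples only by name: the correlation of their deviations over 5690 genes was -0.16 for double null with Bax null, 0.42 for the 2 Atoh7 null groups and 0.02 for Bax het Atoh7 null with Bax null.

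The mean share of ganglion cells with Neurod1 moved with depth. It was 41.6% in Bax het Atoh7 null, and 23.7% at 500 UMIs, 59.6% at 2000 and 67.1% without thinning. In Bax null it was 5.97%, and 10.5% at 2000 and 22.6% without thinning. In double null it was 32.1%, and 18.9% at 500, 43.5% at 2000, 49.8% without thinning, 33.3% without doublets, 33.0% with shared barcodes kept once and 30.2% at the scaled depth. Shares, co-detection ratios and marker ratios were followed together over these settings. Of their values 115 stayed within the SD between libraries of the main value and 77 moved further. Without doublets 22 stayed and 10 moved, and with shared barcodes kept once 31 stayed and 1 moved. Which co-detection ratios moved is not listed here.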
